A study of Mus musculus with 18 samples.

Results

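Cytochrome P450 genes were examined in purified crypts of the mouse small intestine after the deletion of Prmt1, which encodes an arginine methyltransferase. Members were taken by name: every gene of the count table whose symbol is Cyp followed by a family number, a subfamily letter and a gene number, with pseudogenes left out, which gave 94 of the 55335 genes. Of these, 76 belong to families 1 to 4, 14 are enzymes of sterol, bile acid, steroid hormone and vitamin D metabolism, and 4 are the retinoic acid hydroxylases of the Cyp26 family and Cyp20a1, an enzyme without a settled substrate. Expression was high enough for a test in 48 members, of which 43 were in families 1 to 4, 3 in the sterol group and 2 in the last group. The other 46 had at most 13 counts in any library, and 9 of them had none in all 18 libraries.

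P450 enzymes are heme proteins that insert an oxygen atom into their substrates, with electrons handed on by P450 oxidoreductase in the endoplasmic reticulum or by adrenodoxin in mitochondria. Families 1 to 4 act mainly on foreign compounds, fatty acids and eicosanoids, and in the small intestine the Cyp3a enzymes are known for the first-pass oxidation of drugs in absorptive cells. The sterol and vitamin D enzymes instead make or break down signalling molecules and are mostly known from liver, kidney, adrenal gland and gonads.

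Both copies of Prmt1 carried LoxP sites in every mouse. KO mice also carried Vil-CreERT2, a Cre recombinase under the villin promoter that tamoxifen switches on and that is limited to the intestinal epithelium. WT mice were littermates without Cre. All mice were 8 to 12 weeks old and received 2 mg tamoxifen a day. Crypts were collected at day 2 (after 2 injections) or at days 7 and 14 (after 5 injections) from 3 mice per genotype and day. Time since the first injection, number of injections and time since the last one therefore cannot be told apart between days.

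The 18 libraries of ribosomal RNA-depleted total RNA held 12844642 to 31493484 counts each, with WT day 14 replicate 1 the shallowest. Prmt1 itself lay at 13.1 to 17.4 CPM (counts scaled to the effective library size) in the 9 KO libraries and at 20.2 to 30.6 CPM in the 9 WT libraries, so the libraries fell on the side their labels give. WT day 14 replicate 1 stood apart in the P450 genes. Their RPKM (CPM per kilobase of exon) summed to 397 there, against 766 and 862 in the other WT day 14 libraries. The 16 enterocyte markers summed to 8740 CPM, against 18282 and 21199. Results at day 14 are therefore also given without it. In bulk RNA, fewer cells of a type and less RNA per cell cannot be told apart. Among other cell types, day 7 KO against WT crypts had 10 of 12 stem cell markers and 8 of 8 Paneth cell markers lower. In the same comparison 12 of 12 enteroendocrine markers were higher, and 3 of 16 enterocyte markers were higher with 1 lower.

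Promoter sequences were taken from RefSeq (GRCm38.p6, from 250 bases before to 50 after the gene start), which held 73 of the 94 members and 41 of the 48 tested ones. Cyp2c66 and Cyp2c65 are shown because these neighbours on chromosome 19 have nearly the same transcript and a similar promoter but different values in KO crypts. Cyp2e1 and Cyp2j9 are shown because their log2 fold changes at day 7 were the lowest of the tested members. Capitals mark every match, on either strand, to 7 motifs. These were the TATA box TATAAA, the CCAAT box, the aryl hydrocarbon receptor core GCGTG, the nuclear receptor hexamer AGGTCA with its variant form AGTTCA, the HNF1 motif GTTAAT and the CDX motif TTTATG. No matches overlap in these windows.
Cyp2c65: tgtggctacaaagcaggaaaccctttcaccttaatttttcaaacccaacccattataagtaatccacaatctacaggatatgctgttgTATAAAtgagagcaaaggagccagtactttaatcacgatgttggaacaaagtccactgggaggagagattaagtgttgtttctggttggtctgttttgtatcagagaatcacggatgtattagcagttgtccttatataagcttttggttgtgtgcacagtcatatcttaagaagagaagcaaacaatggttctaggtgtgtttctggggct
Cyp2c66: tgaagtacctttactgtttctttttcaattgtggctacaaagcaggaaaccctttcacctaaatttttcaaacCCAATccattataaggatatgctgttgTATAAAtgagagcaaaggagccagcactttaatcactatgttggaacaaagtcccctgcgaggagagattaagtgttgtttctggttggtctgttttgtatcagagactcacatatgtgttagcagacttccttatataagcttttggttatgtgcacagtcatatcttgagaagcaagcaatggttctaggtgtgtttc
Cyp2e1: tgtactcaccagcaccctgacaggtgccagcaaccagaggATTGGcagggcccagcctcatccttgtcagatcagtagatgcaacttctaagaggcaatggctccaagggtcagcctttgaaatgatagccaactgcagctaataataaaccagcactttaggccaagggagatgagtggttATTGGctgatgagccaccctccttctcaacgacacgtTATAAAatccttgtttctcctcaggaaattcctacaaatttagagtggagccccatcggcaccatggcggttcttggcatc
Cyp2j9: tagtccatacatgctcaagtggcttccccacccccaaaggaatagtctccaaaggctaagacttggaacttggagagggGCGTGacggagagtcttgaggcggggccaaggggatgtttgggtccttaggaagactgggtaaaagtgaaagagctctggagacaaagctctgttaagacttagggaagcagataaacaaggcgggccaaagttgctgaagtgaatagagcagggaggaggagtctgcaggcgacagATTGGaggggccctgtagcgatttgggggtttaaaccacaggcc
These windows are chr19:39060756-39061055 and chr19:39113648-39113947 on the plus strand for Cyp2c65 and Cyp2c66. They are chr7:140763569-140763868 on the plus strand for Cyp2e1, and chr4:96591436-96591735 on the minus strand for Cyp2j9. Aligned end to end, the Cyp2c65 and Cyp2c66 windows were identical in 256 of 329 columns, with 15 mismatches and 58 gap columns. Both hold TATAAA at positions -162 and -150 relative to the gene start, and Cyp2c66 alone holds CCAAT, at -177. Over the tested members TATAAA occurred in 34.0% of 47 promoters and CCAAT in 55.3%, against 13.6% and 37.4% of 32851 promoters in all. The aryl hydrocarbon receptor core was found in 29.8% of the members' promoters and 32.4% of all promoters, and the nuclear receptor hexamer in 8 of the 47 and in 16.3% of all. Its variant form had shares of 10.6% and 14.0%, the HNF1 motif 10.6% and 7.1%, and the CDX motif 4.26% and 11.9%. In the 15 promoters of 14 members that were lower in KO crypts at day 7, TATAAA was found in 26.7% and CCAAT in 53.3%.

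In WT crypts, P450 expression was concentrated in a few genes of families 2 to 4. Over the 9 WT libraries, 17 members had a mean of at least 10 RPKM, 10 lay between 1 and 10 RPKM, and 67 were below 1 RPKM. Cyp4f14, a fatty acid and leukotriene hydroxylase, was highest at 183 ± 68.3 RPKM (SD, n = 9). The drug-oxidising enzymes followed, Cyp3a13 at 132 ± 74.0, Cyp3a25 at 100.2 ± 61.2, Cyp2b10 at 78.1 ± 61.3 and Cyp3a11 at 75.6 ± 70.1 RPKM. Cyp2d26 (65.6 ± 29.3 RPKM), the intestinal Cyp2c65 (64.5 ± 28.4 RPKM), the fatty acid hydroxylase Cyp4v3 (59.2 ± 31.6 RPKM) came next. Cyp4f40 (36.5 ± 4.58 RPKM) and Cyp2j6 (35.8 ± 9.33 RPKM), of a subfamily that oxidises arachidonic acid, completed the 10 highest. This order pools days whose levels differed. At day 14 the WT mean of Cyp2d26 (50.5 ± 27.6 RPKM, SD, n = 3) was above those of Cyp3a25 (47.2 ± 26.7 RPKM) and Cyp2b10 (41.3 ± 23.8 RPKM). Cyp3a11 (24.7 ± 12.1 RPKM) was outside the 10 highest, and these day 14 differences were not tested.

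Neighbours in this order were compared on log2 RPKM in exact two-sided paired permutation tests, with Benjamini-Hochberg adjustment over the 9 steps. The same 9 libraries set the order, so the p-values do not allow for that ranking and are a description. Of the 9 steps, 3 had an adjusted p under 0.05. Cyp4f14 was above Cyp3a13 in 9 of 9 libraries (adjusted p = 0.0176), Cyp3a13 was above Cyp3a25 in 9 of 9 (adjusted p = 0.0176), and Cyp2c65 was above Cyp4v3 in 8 of 9 (adjusted p = 0.0468). The other 6 steps had adjusted p from 0.106 to 0.938 and were not separated beyond their spread. On the log2 scale Cyp3a11 lay below Cyp2d26 (mean difference -0.135), the reverse of the order by mean RPKM. Families 1 to 4 made up 97.8% to 98.7% of the summed P450 RPKM in the WT day 2 libraries and 96.0% to 97.7% in the WT day 14 libraries. The sterol group made up 1.01% to 1.74% and 1.74% to 2.67%. The Cyp3a genes alone held 33.5% to 35.7% of the summed RPKM at day 2 and 18.2% to 24.2% at day 14.

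**Figure D1:**
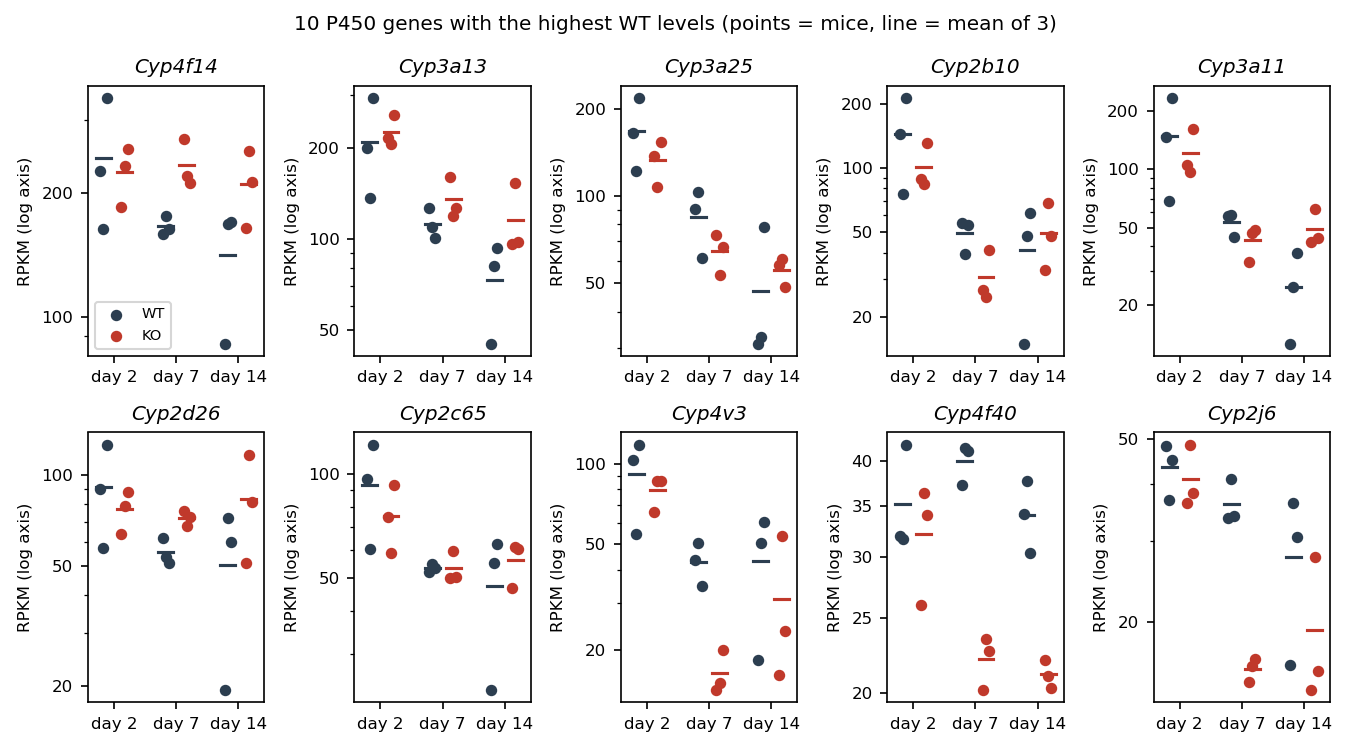
RPKM on a log axis of the 10 P450 genes with the highest mean in WT crypts, by day; points are mice (3 per group, WT dark, KO red) and lines are group means. Group means of the 3 Cyp3a genes and Cyp2b10 were below their day 2 means at days 7 and 14 in both genotypes, which passed a test for the Cyp3a genes in WT at day 14 alone and was not tested in KO. The Cyp4f40 KO libraries of days 7 and 14 all lay below 24 RPKM.

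At day 7, KO crypts had lower RNA of many P450 genes of families 2 and 4 and of the sterol enzymes Cyp27a1 and Cyp39a1. Higher calls rested on few counts: Cyp26b1 and Cyp4a32 were called higher, but in 0 and 2 of the 6 fits that left out a library. KO and WT libraries of each day were compared with edgeR's quasi-likelihood test in a model of all 18 libraries, with Benjamini-Hochberg adjustment over 21349 genes and a threshold of 0.05 on the adjusted p. By this test 19 of 48 members (39.6%) changed, 17 lower and 2 higher. Among all tested genes 17.3% were called (10.2% lower and 7.11% higher). The members' median log2 fold change was -0.68, against 0.02 for all tested genes. In 30 of 48 members the 3 KO libraries did not overlap the 3 WT libraries, 24 below and 6 above, where 33.6% of all tested genes did not overlap. A filter on the mean of all 18 libraries (at least 50 counts) left 27 members, of which 11 were called, all lower, where 21% of all genes passing that filter were called. Under the main filter, 39 of the 48 members reached the required 0.471 CPM in enough libraries of either genotype to pass through it alone. Of these 39, 16 were called lower and 1 higher at day 7, and 6 lower and 0 higher at day 14. Cyp26b1 passed through KO libraries alone and Cyp2c70 through WT libraries alone, so their calls are given as a description.

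At day 2, 0 of 48 members were called by edgeR or by DESeq2, 1 had an unadjusted p under 0.05 in edgeR, and 0.0328% of all tested genes were called. KO libraries lay below WT libraries without overlap in 3 members, where 8.16% of all tested genes did not overlap. At day 14, 7 of 48 members (14.6%) changed, 6 lower and 1 higher, where 7.92% of all tested genes were called (4.69% lower and 3.23% higher). The day 14 median was -0.29, and 12 members did not overlap (8 below and 4 above), where 26.5% of all tested genes did not. All 7 members called at day 14 were also among the 19 called at day 7 (36.8% of those). Of the 7, 6 had a smaller log2 fold change at day 14, the exception being Cyp26b1. Without WT day 14 replicate 1, 9 members were called at day 14, of which 5 were shared with the 7. In this fit 6.08% of all tested genes were called. Cyp2c66, Cyp2c68, Cyp2j6 and Cyp2s1 were added and Cyp39a1 and Cyp4f15 were lost. With the replicate number as a block, 11 members were called at day 14, 5 higher and 6 lower, where 9.86% of all tested genes were called. Cyp2a12, Cyp2c68, Cyp2d26, Cyp3a11 and Cyp3a13 were added and Cyp4f15 was lost.

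**Figure D2:**
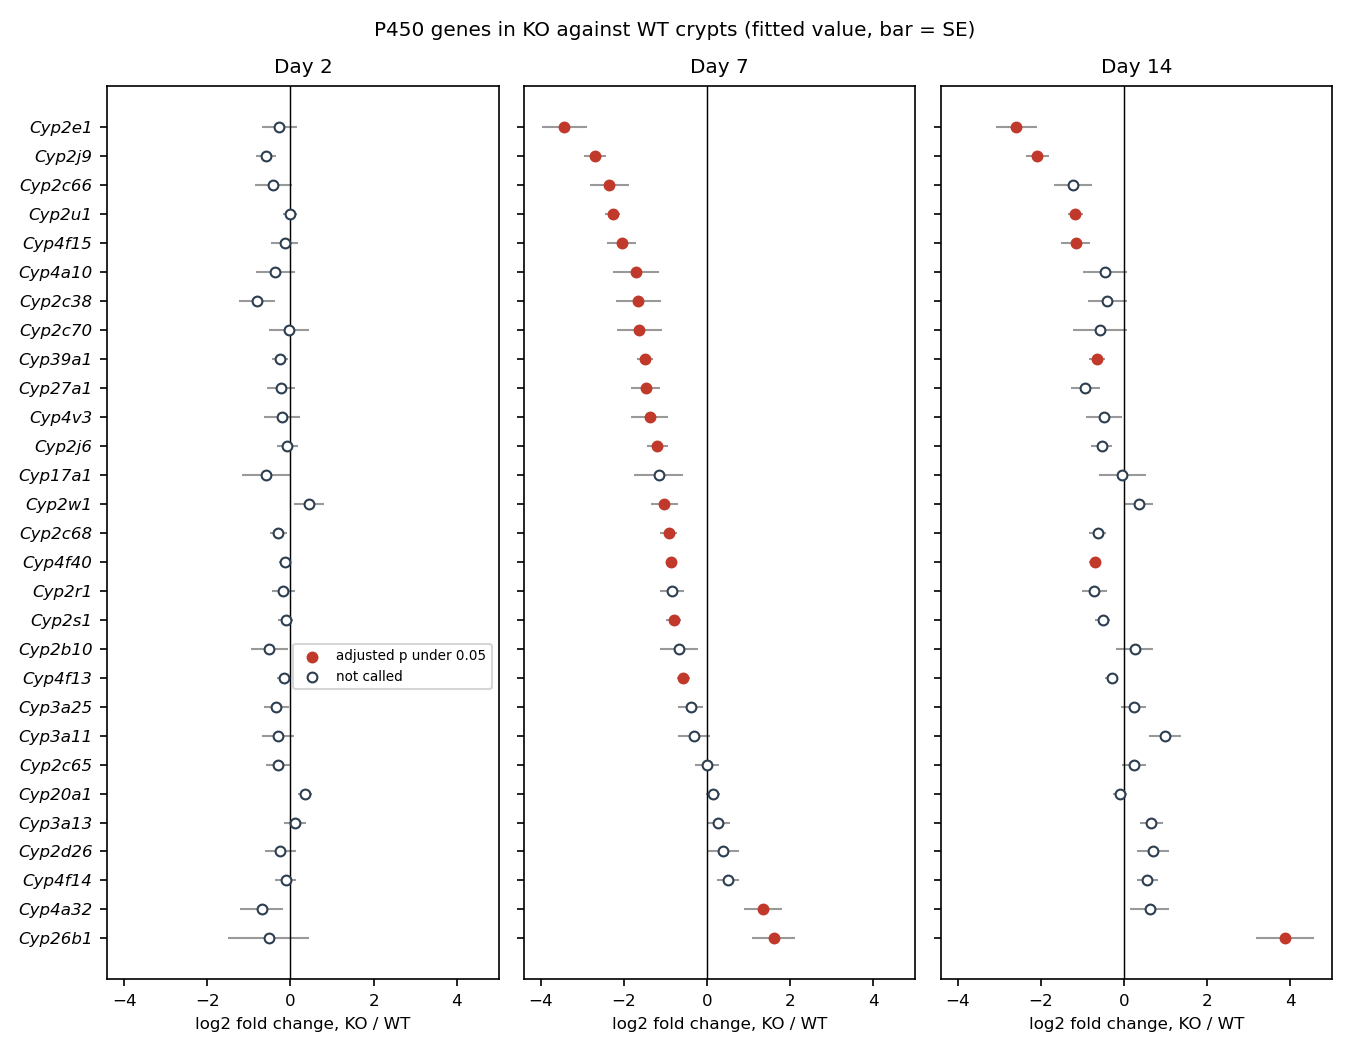
Fitted log2 fold change of KO over WT (horizontal axis) for the 29 members named here, at days 2, 7 and 14; bars are standard errors and red points have an edgeR adjusted p under 0.05. No point is red at day 2, 19 are red at day 7 and 7 at day 14.

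The difference between days was tested directly. The KO effect at day 7 was lower than that at day 2 in 6 members, where 4.37% of all tested genes were called (3.04% lower). These were Cyp2e1, Cyp2j9, Cyp2u1, Cyp39a1, Cyp4f15 and Cyp4f40, the same genes that were lower at both days 7 and 14. Leaving out 1 library at a time, Cyp2j9, Cyp2u1 and Cyp39a1 were called in all 12 fits. Cyp2e1 was lost without KO day 7 replicate 1, Cyp4f15 in 6 of the 12 and Cyp4f40 in 9 of the 12. Cyp4f15 and Cyp4f40 were also lost with only the groups compared. Between days 14 and 7 the KO effects of 0 members differed by edgeR, with 0 by DESeq2, 6 at an unadjusted p under 0.05 and 0% of all tested genes called. The 12 members called at day 7 only all had smaller log2 fold changes at day 14, but a change of their KO effect was therefore not shown.

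The lowest adjusted p at both days were those of Cyp2u1 and Cyp2j9. Cyp2u1, which hydroxylates long-chain fatty acids (chr3:131288441-131303227, mm10, minus strand), stood at 26.8, 33.1 and 31.2 CPM in WT and 7.20, 6.04 and 5.59 CPM in KO libraries at day 7. At day 14 it stood at 13.7, 18.9 and 17.1 CPM in WT and 6.01, 9.40 and 6.88 CPM in KO libraries. All KO libraries were below all WT libraries on both days, whereas the day 2 libraries overlapped (21.2 to 27.1 CPM in WT, 22.2 to 26.6 CPM in KO). Its log2 fold change was -2.27 ± 0.17 (SE) at day 7 (edgeR adjusted p = 1.01e-07) and -1.17 ± 0.17 at day 14 (edgeR adjusted p = 0.000292). An antisense gene, 4930534D22Rik, covers 10.5% of its exon bases, and reads there cannot be assigned since strand was not used in counting.

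Cyp2j9, of the subfamily that oxidises arachidonic acid, stood at 4.93, 4.41 and 6.70 CPM in WT and 0.712, 0.913 and 0.830 CPM in KO libraries at day 7. Its day 14 libraries held 3.70, 4.70 and 5.65 CPM in WT and 0.949, 1.64 and 0.742 CPM in KO. KO was below WT without overlap on both days. At day 2 KO was also below WT (5.68 to 7.59 CPM in WT, 3.79 to 4.91 CPM in KO), but it was not called (edgeR adjusted p = 0.999). The log2 fold change was -2.70 ± 0.27 at day 7 (edgeR adjusted p = 1.98e-06) and -2.08 ± 0.27 at day 14 (edgeR adjusted p = 8.75e-05). Its neighbour Cyp2j6 fell by 1.20 ± 0.26 on the log2 scale at day 7 (edgeR adjusted p = 0.00349), from 122, 147 and 122 CPM in WT to 53.2, 57.7 and 59.8 CPM in KO. It was not called at day 14 (-0.53 ± 0.25, edgeR adjusted p = 0.233), where WT day 14 replicate 1 lay among the KO libraries.

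In the Cyp4f cluster of chromosome 17 (chr17:32452723-32947402), which encodes hydroxylases of leukotrienes and long-chain fatty acids, 3 of 7 tested members fell at day 7, where 10.2% of all tested genes were lower. Cyp4f40 stood at 92.9, 104 and 103 CPM in WT and 50.2, 58.5 and 56.5 CPM in KO libraries at day 7, and at 85.1, 93.8 and 75.8 against 55.0, 52.4 and 50.5 CPM at day 14. The groups did not overlap on either day, with log2 fold changes of -0.86 ± 0.14 (edgeR adjusted p = 0.00033) and -0.69 ± 0.14 (edgeR adjusted p = 0.00409). Cyp4f15 was a low gene with 34 to 72 counts per WT library and 4 to 18 per KO library at day 7, and its log2 fold change was -2.06 ± 0.35 (edgeR adjusted p = 0.000471). At day 14 its log2 fold change was -1.15 ± 0.35 (edgeR adjusted p = 0.0464), a call lost in each of the 6 fits that left out a library. Cyp4f13 fell by 0.57 ± 0.16 at day 7 (edgeR adjusted p = 0.0168), a call lost without KO day 7 replicate 2 or WT day 7 replicate 1.

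Cyp4f14, the most abundant P450 of these crypts and a member of the same cluster, was not called. Its log2 fold change was 0.50 ± 0.26 at day 7 (edgeR adjusted p = 0.212) and 0.57 ± 0.26 at day 14 (edgeR adjusted p = 0.207), where it was 0.32 without WT day 14 replicate 1 (edgeR adjusted p = 0.527). At day 7 its KO libraries (654, 531 and 511 CPM) nevertheless all lay above the WT libraries (383, 425 and 395 CPM). Outside the cluster, Cyp4v3 stood at 166, 191 and 133 CPM in WT and 53.9, 57.4 and 76.3 CPM in KO at day 7, a log2 fold change of -1.39 ± 0.44 (edgeR adjusted p = 0.0439). This call was lost in each of the 6 fits without a library, with adjusted p from 0.0597 to 0.162, and at day 14 the groups overlapped.

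**Figure D3:**
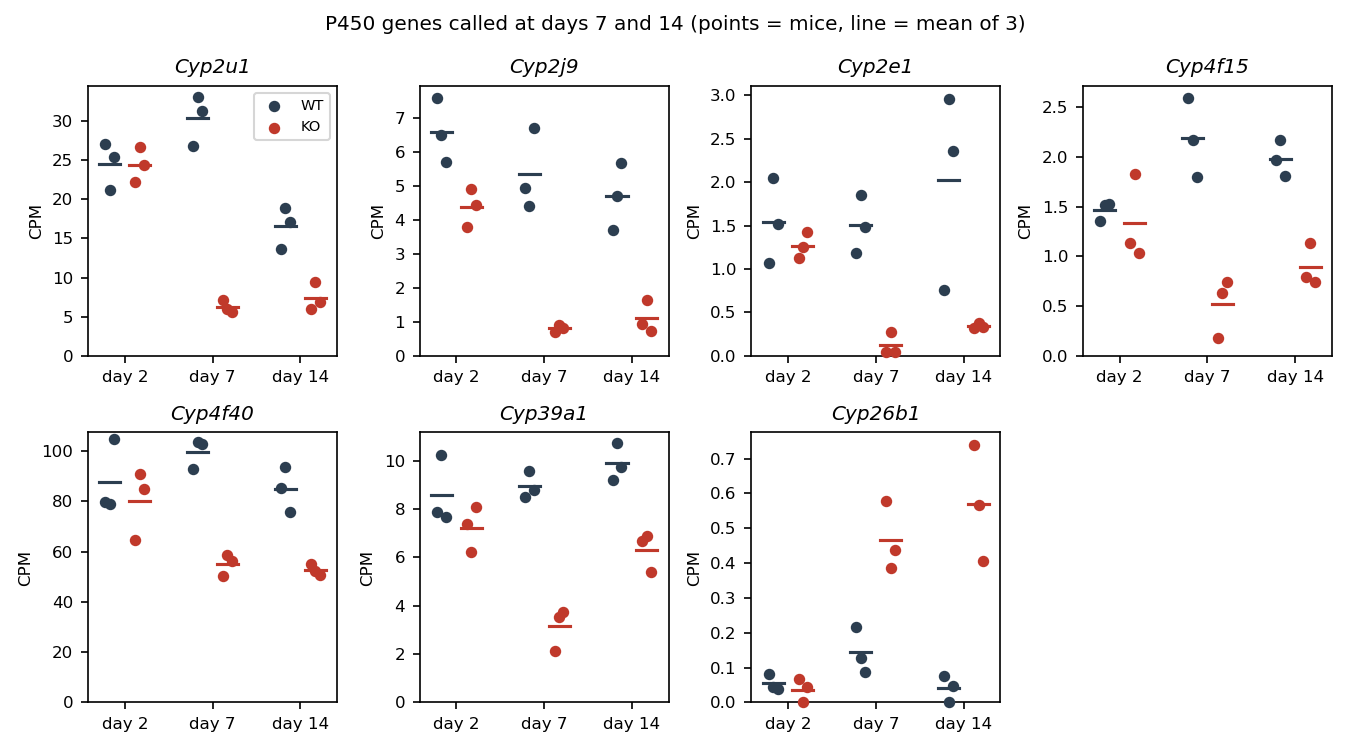
CPM of the 7 members called at days 7 and 14, by day; points are mice (3 per group, WT dark, KO red) and lines are group means, on axes that start at 0. The KO points of days 7 and 14 lie below all WT points of the same day in the first 6 panels and above them for Cyp26b1, while the day 2 groups overlap except for Cyp2j9.

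Among enzymes of drug and solvent oxidation, Cyp2e1 and 4 Cyp2c genes were called at day 7. Cyp2e1, which oxidises ethanol and small solvents, was rare, with 33, 29 and 34 counts in WT and 1, 8 and 1 counts in KO libraries at day 7. At day 14 it had 10, 75 and 51 counts in WT and 6, 6 and 5 in KO. In CPM all KO libraries were below all WT libraries on both days. The log2 fold change was -3.43 ± 0.55 at day 7 (edgeR adjusted p = 0.000264) and -2.59 ± 0.50 at day 14 (edgeR adjusted p = 0.00247). Both calls held in all 6 fits without a library. Over these fits the log2 fold change ranged from -4.90 to -3.03 at day 7 and from -2.93 to -2.23 at day 14. Of 8 liver and pancreas markers, Alb had at most 21 counts, Serpina1a at most 3 and Fgb at most 1 in any library, while Ttr reached 219 and Cela1 119. The 8 summed to 7.16 to 8.75 CPM in WT and 7.25 to 10.6 CPM in KO crypts at day 7, and to 6.81 to 10.3 and 10.6 to 15.8 CPM at day 14. Ttr itself was called higher in KO at day 14 (log2 fold change 1.00 ± 0.22, edgeR adjusted p = 0.00718), while Alb, Cela1 and Pnlip were not called.

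In the Cyp2c subfamily, which oxidises drugs and arachidonic acid, 4 of 9 tested members fell at day 7 and 0 of 9 were called at day 14 by edgeR without the block, where 10.2% and 4.69% of all tested genes were lower. The 4 include Cyp2c70, which passed the filter through WT libraries alone. Cyp2c66 stood at 45.9, 43.3 and 46.9 CPM in WT and 4.85, 10.6 and 11.1 CPM in KO libraries at day 7, without overlap. Its log2 fold change was -2.35 ± 0.47 (edgeR adjusted p = 0.00356). At day 14 it stood at 12.7, 29.1 and 52.1 CPM in WT and 11.9, 15.2 and 13.4 CPM in KO, and was not called (-1.23 ± 0.46, edgeR adjusted p = 0.131). Without WT day 14 replicate 1, the lowest WT library, it was called (-1.58, edgeR adjusted p = 0.0317). Cyp2c68 fell by 0.92 ± 0.20 at day 7 (edgeR adjusted p = 0.00365) and held in all 6 fits without a library. Its day 14 log2 fold change was -0.63 ± 0.20 (edgeR adjusted p = 0.066) and -0.60 with the block (edgeR adjusted p = 0.0259), and DESeq2 called it. The rare Cyp2c38 (-1.66 ± 0.54, edgeR adjusted p = 0.0399) and Cyp2c70 (-1.63 ± 0.54, edgeR adjusted p = 0.0433), which forms muricholic acids in mouse liver, were also called. These calls held in 2 and 1 of the 6 fits without a library. Over these fits the Cyp2c38 log2 fold change ranged from -1.89 to -0.98.

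Cyp2c65, which ends 19954 bases before Cyp2c66 starts, was not called: it stood at 99.9, 106 and 103 CPM in WT and 96.0, 115 and 96.7 CPM in KO at day 7, with overlap (log2 fold change -0.00 ± 0.28, edgeR adjusted p = 0.996). The transcripts of Cyp2c65 and Cyp2c66 were 96.4% identical over 1611 bases, but no stretch of 100 bases was shared exactly with another gene. The log2 ratio of Cyp2c66 to Cyp2c65 counts was -1.18 ± 0.09 (SD, n = 3) in WT and -3.62 ± 0.61 in KO crypts at day 7. At day 14 it was -1.64 ± 0.37 and -3.00 ± 0.10. The groups did not overlap on either day. With 3 against 3 libraries an exact two-sided permutation test cannot go below p = 0.1, which both days reached (0.12 after Benjamini-Hochberg adjustment over 6 tests of pairs). These pairs were chosen after their values were seen.

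Other pairs within a cluster were compared in the same way. The log2 ratio of Cyp4f15 to Cyp4f14 counts was -7.52 ± 0.29 in WT and -10.2 ± 1.25 in KO at day 7. It was -7.35 ± 0.58 against -9.11 ± 0.23 at day 14, again without overlap (exact permutation p = 0.1 on both days). Cyp4a10 and Cyp4a32, fatty acid hydroxylases 67320 bases apart with 97.2% identical transcripts, were called in opposite directions at day 7. Cyp4a10 had 48, 26 and 47 counts in WT and 14, 17 and 10 in KO libraries, and Cyp4a32 had 19, 5 and 4 in WT and 36, 25 and 16 in KO. Their log2 fold changes were -1.71 ± 0.56 (edgeR adjusted p = 0.0425) and 1.35 ± 0.46 (edgeR adjusted p = 0.0475). The calls of Cyp4a10 and Cyp4a32 held in 0 and 2 of the 6 fits without a library, and at day 14 the ratio overlapped between genotypes (exact permutation p = 0.4).

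**Figure D4:**
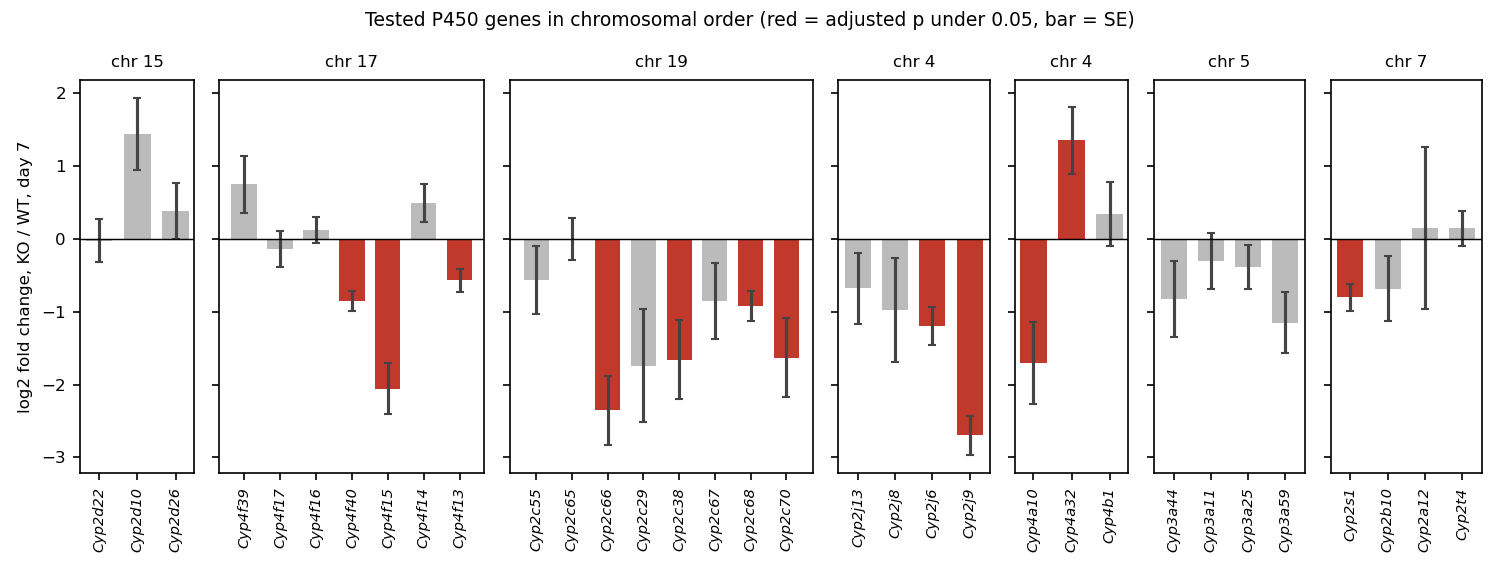
Log2 fold change of KO over WT at day 7 for tested members of the 7 chromosomal clusters with at least 3 tested genes, in gene order; bars are fitted values with standard errors, red where the edgeR adjusted p is under 0.05. Called genes stand beside uncalled ones in the Cyp4f (chr 17) and Cyp2c (chr 19) clusters, and no Cyp3a gene (chr 5) is red.

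**Figure D5:**
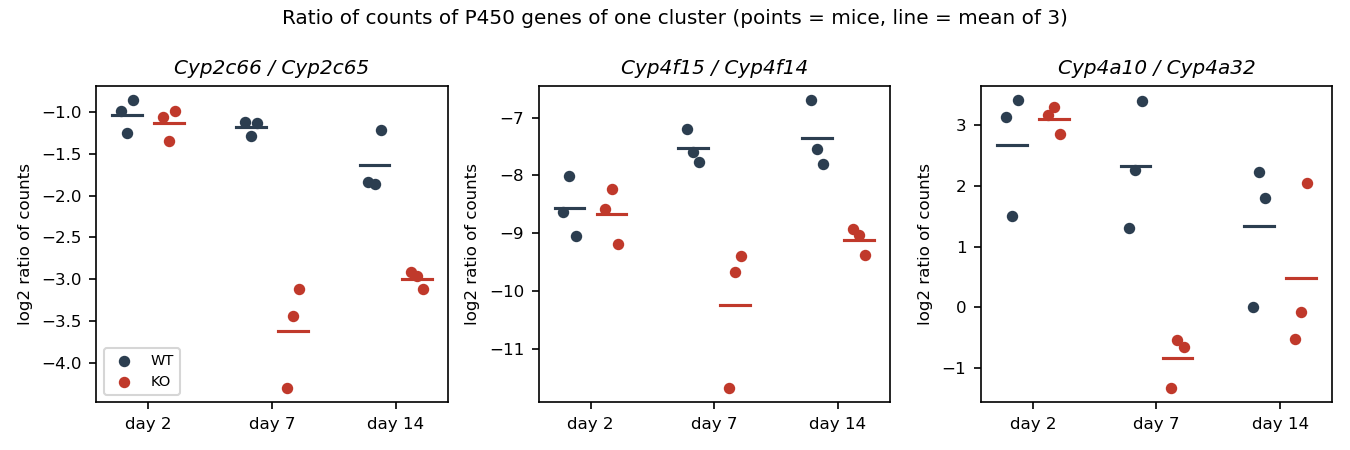
Log2 ratio of the counts of 3 pairs of members of the same cluster in each library by day, with 0.5 added to each count; points are mice (3 per group, WT dark, KO red) and lines are group means. KO lies below WT without overlap at day 7 in the 3 panels and at day 14 in the first 2.

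Of the 5 tested Cyp3a genes, the main intestinal drug oxidases, 0 were called in KO against WT crypts on any day by edgeR with all libraries and without the block, where 0.0328%, 17.3% and 7.92% of all tested genes were called at days 2, 7 and 14. Cyp3a59 was called at day 7 in the fit without WT day 7 replicate 3. Cyp3a11 stood at 291, 295 and 227 CPM in WT and 169, 239 and 249 CPM in KO libraries at day 7, with overlap (log2 fold change -0.31 ± 0.38, edgeR adjusted p = 0.65). At day 14 it stood at 64.1, 126 and 187 CPM in WT and 213, 316 and 225 CPM in KO, all KO above WT, but was not called without the block (1.00 ± 0.39, edgeR adjusted p = 0.137), and with it the log2 fold change was 1.11 (edgeR adjusted p = 0.0287). Without WT day 14 replicate 1 it was 0.69 (edgeR adjusted p = 0.332). Cyp3a13 had the same order at day 14, with 0.66 ± 0.27 (edgeR adjusted p = 0.15) and 0.70 with the block (edgeR adjusted p = 0.0343). Without WT day 14 replicate 1 the value of Cyp3a13 was 0.42 (edgeR adjusted p = 0.412). Cyp3a25 overlapped. Cyp2b10 and, without the block, Cyp2d26 were not called on any day in the model of all libraries, with log2 fold changes of -0.68 ± 0.45 and 0.38 ± 0.38 at day 7. Fitted with the day 7 groups alone, Cyp2b10 was called (-0.69, edgeR adjusted p = 0.0447). Of the further epithelial enzymes, Cyp2s1, found in many epithelia outside the liver, fell by 0.80 ± 0.18 at day 7 (edgeR adjusted p = 0.00474) in KO crypts. Cyp2w1, an enzyme mostly known from the gut and its tumours, fell by 1.03 ± 0.33 (edgeR adjusted p = 0.0355) with 21 to 33 counts in KO and 29 to 59 in WT libraries, a call that held in 1 of the 6 fits without a library.

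Among the 14 enzymes of sterol, bile acid, steroid and vitamin D metabolism, 3 could be tested and 2 of them fell at day 7. Cyp39a1, an oxysterol hydroxylase of bile acid synthesis, stood at 8.49, 9.58 and 8.80 CPM in WT and 2.13, 3.54 and 3.76 CPM in KO libraries at day 7, without overlap (log2 fold change -1.50 ± 0.20, edgeR adjusted p = 3.7e-05). At day 14 it stood at 9.22, 10.7 and 9.73 CPM in WT and 6.69, 6.88 and 5.40 CPM in KO, also without overlap (-0.65 ± 0.19, edgeR adjusted p = 0.0419). That call was lost in each of the 6 fits without a library (adjusted p 0.069 to 0.197). Cyp27a1, the mitochondrial sterol hydroxylase of bile acid synthesis, stood at 33.1, 28.1 and 19.6 CPM in WT and 6.36, 8.42 and 14.3 CPM in KO at day 7 (-1.48 ± 0.35, edgeR adjusted p = 0.00798) and overlapped at day 14 (-0.93 ± 0.35, edgeR adjusted p = 0.124). With the replicate block Cyp27a1 was not called at day 7 (-1.51, edgeR adjusted p = 0.0513). Cyp17a1, of sex steroid synthesis, had 2 to 26 counts per library and was not called.

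The remaining 11 enzymes of this group were at or near 0. Cyp19a1, the aromatase, had 0 counts in all libraries, and Cyp24a1, which breaks down vitamin D, and Cyp7a1, the rate-limiting enzyme of bile acid synthesis, had 1 count each over the 18 libraries. Cyp27b1, which activates vitamin D, had 111 counts in total and at most 11 in a library, and Cyp11a1, which starts steroid synthesis from cholesterol, had 94. Cyp2r1, the vitamin D hydroxylase of family 2, was tested: its KO libraries lay below its WT libraries in CPM at days 7 and 14. The log2 fold changes were -0.85 ± 0.29 (edgeR adjusted p = 0.0534) and -0.72 ± 0.30 (edgeR adjusted p = 0.161). At day 7 it was called without the 20 most abundant genes, with the Y-linked covariate and without KO day 7 replicate 3. In families 1 to 4, 15 members were called lower and 1 higher of 43 tested at day 7 (median log2 fold change -0.68), beside 2 lower of 3 in the sterol group (median -1.48), where 10.2% of all tested genes were lower. At day 14 the counts were 5 lower of 43 and 1 lower of 3, where 4.69% of all tested genes were lower. The difference between the groups was not tested.

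Cyp26b1, which breaks down retinoic acid, was called higher on both days by edgeR, with few counts. It had 6, 2 and 2 counts in WT and 13, 11 and 10 counts in KO libraries at day 7, and 1, 0 and 1 counts in WT and 14, 9 and 6 counts in KO libraries at day 14. KO was above WT without overlap on both days, and 0 to 2 counts were seen in each day 2 library. The log2 fold change at day 7 was 1.6 ± 0.52 (edgeR adjusted p = 0.0402), a call lost in each of the 6 fits without a library. At day 14 the edgeR adjusted p was 0.00155. The ratio of KO to WT counts per effective library size was 17.6, with an exact 95% interval of 4.44 to 152 that covers counting error only. Cyp26b1 passed the filter through KO libraries alone, so its calls are a description. DESeq2 did not call it at day 7 and gave no adjusted p at day 14. Cyp26a1 and Cyp26c1 could not be tested, and Cyp20a1 was not called on any day (0.15 ± 0.17 at day 7, edgeR adjusted p = 0.602).

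Levels in WT crypts also moved with the day. Cyp3a11 stood at 745, 348 and 1183 CPM at day 2, 291, 295 and 227 CPM at day 7 and 64.1, 126 and 187 CPM at day 14, so all day 14 libraries lay below all day 2 libraries. Between days 14 and 2, 4 of 48 members changed, all lower, where 1.61% of all tested genes were called (0.871% lower). They were Cyp3a11 (-2.59 ± 0.41, edgeR adjusted p = 0.0081), Cyp3a25 (-1.83 ± 0.31, edgeR adjusted p = 0.0102), Cyp3a13 (-1.52 ± 0.28, edgeR adjusted p = 0.0123) and Cyp2c68 (-0.98 ± 0.20, edgeR adjusted p = 0.0228). Enterocyte markers moved with them, summing to 21877 to 49673 CPM at day 2 and 8740 to 21199 CPM at day 14 in WT, and their part in the result was not tested. Only Cyp3a11 was still called without WT day 2 replicate 1 or without WT day 2 replicate 3, Cyp3a11 and Cyp3a25 without WT day 14 replicate 1. In those fits 0.101%, 0.28% and 0.214% of all tested genes were called. The count was 10 members without WT day 2 replicate 2 (3.23% of all tested genes) and 0 in a model of only these 2 groups (0.14%).

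Between WT days 7 and 2, 0 of 48 members were called by edgeR (18 at an unadjusted p under 0.05, 8 called by DESeq2), where 0.553% of all tested genes were called by edgeR and 9.63% by DESeq2. Between WT days 14 and 7, Cyp2u1 alone was lower (-0.87 ± 0.16, edgeR adjusted p = 0.0487), where 0.0796% of all tested genes were called (0.0422% lower). This call was lost whenever a library was left out.

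Among genes that serve P450 enzymes, a list of electron carriers and the partner protein Pgrmc1 held 7 tested genes. Of these, 2 were higher at day 7, and 2 of 8 enzymes of heme synthesis were lower. Among all tested genes 7.11% were higher and 10.2% lower. Por, the P450 oxidoreductase, was higher at day 7 (1.08 ± 0.33, edgeR adjusted p = 0.0319) and at day 14 (1.10 ± 0.33, with an edgeR adjusted p just under the threshold). Cyb5b, a cytochrome that passes electrons on, was higher at day 7 (0.77 ± 0.23, edgeR adjusted p = 0.0265). Of the 7 tested carriers and partners 0 were lower on either day. Of 8 enzymes of heme synthesis 2 were lower on both days: Uros fell by 0.95 ± 0.18 and 0.84 ± 0.18 (edgeR adjusted p = 0.000958 and 0.00579), and Fech, which inserts the iron, by 0.47 ± 0.10 and 0.51 ± 0.10 (edgeR adjusted p = 0.00206 and 0.0022). Of 23 transcription factors known to regulate P450 genes, Nr0b2, Nr1h4 and Nfe2l2 were higher and Foxa2, Nr3c1 and Rxrb lower at day 7, and 0 were called at day 14 by edgeR. The epoxide hydrolases Ephx1 and Ephx2 and the P450 enzymes Cyp51, Tbxas1 and Ptgis, whose symbols fall outside the rule, were not called.

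Cell type markers moved beside these members. Summed over 12 markers, the stem cell list ranged from 2016 to 2655 CPM in WT and 597 to 1338 CPM in KO crypts at day 7, and from 2486 to 2687 and 1859 to 2164 CPM at day 14. The 8 Paneth markers summed to 9442 to 15955 CPM in WT and 1518 to 4192 CPM in KO at day 7, with 1 of 8 lower at day 14. The 12 enteroendocrine markers summed to 321 to 343 and 724 to 908 CPM, with 12 of 12 higher at day 14. The 16 enterocyte markers summed to 16161 to 19595 CPM in WT and 22426 to 34407 CPM in KO at day 7. At day 14, beside the higher Cyp3a11, Cyp3a13 and Cyp2d26 calls with the block, they summed to 8740 to 21199 CPM in WT and 17894 to 33269 CPM in KO, with 1 of 16, Sis, called higher (edgeR adjusted p = 0.0229). Of the goblet list 3 of 8 were lower and of the tuft list 1 of 6 tested at day 7. Of the immune list 0 of 12 were called by edgeR and of the stromal list 1 of 11 tested was higher at day 7. No marker of these lists was at 0 in all libraries, and the part of these cell types in the P450 changes was not tested.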

How the data were processed

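RNA of purified crypts was sequenced as 100-base paired-end reads from 3 WT and 3 KO mice per day. The deposited values are raw counts per gene: per the file header and the methods, the authors aligned reads to mm10 with STAR 2.7.3 and counted them with featureCounts 1.6.4, without strand and without reads that map to several places. The count table names GENCODE release 23 and the methods release 26. The 20 genes that the study removed as differing between male and female mice were left out before normalization. The study used both sexes, and the labels do not give the sex of each mouse. Genes passing edgeR's expression filter (21349) were fitted with edgeR 4.0.16 (TMM, robust quasi-likelihood, 1 mean per group, all 18 libraries), and p-values were adjusted by Benjamini-Hochberg. CPM use effective library sizes. The standard error was taken from the F statistic. The fit was also run on counts simulated from its own dispersions. The outcome of that run is not given here, and no result rests on it. Alternatives were DESeq2 1.42.0, other filters and normalizations, only the compared groups, a Y-linked covariate, a replicate block and each library left out. Named members were those called in any comparison, the 10 highest in WT, and the tested sterol, vitamin D and retinoic acid enzymes. Members and lists were chosen with earlier results of these data known.

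Same-numbered KO and WT libraries were checked for shared deviations from their group means. The correlations were 0.0478, 0.158 and 0.381 at day 2, -0.159, 0.206 and 0.0787 at day 7, and 0.227, 0.18 and 0.159 at day 14. Neither the labels nor the main model paired mice. A block of KO and WT mice by replicate number was fitted for every day as an alternative. Calls that need the block are a description, since it was set beside the day 14 results after these correlations were seen. Between WT days the block joined libraries of the same number from different days, which are different mice. Depth was 12844642 to 31493484 counts per library, and intervals from counts cover counting error only.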

Additional observations from a re-analysis of the deposited data

Results flagged for a closer look

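In 6 members the KO effect differed between days 2 and 7 by a test of the difference itself (edgeR, adjusted over all tested genes), where 4.37% of all tested genes were called. The KO effect at day 7 minus that at day 2, on the log2 scale, was -3.16 for Cyp2e1 (edgeR adjusted p = 0.014), -2.11 for Cyp2j9 (edgeR adjusted p = 0.00219) and -2.26 for Cyp2u1 (edgeR adjusted p = 3.82e-05). It was -1.26 for Cyp39a1 (edgeR adjusted p = 0.0118), -1.91 for Cyp4f15 (edgeR adjusted p = 0.0291) and -0.73 for Cyp4f40 (edgeR adjusted p = 0.0421). Without KO day 7 replicate 1, Cyp2e1, Cyp4f15 and Cyp4f40 were not called. The mice of day 2 had received 2 injections and those of day 7 had received 5, so day and tamoxifen dose cannot be told apart.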

How the results depend on the processing

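At day 7, 11 members were called where genes needed 50 counts on average (21% of all tested genes), and 11 to 15 when a library was left out (9.43% to 19%). At day 14, 4 were called with that filter (9.79% of all tested genes) and 11 with the replicate block (9.86%). For the day 7 against day 2 difference in KO effect, leaving out a library gave 3 to 6 (1.98% to 5.96% of all tested genes). Between WT days 7 and 2 the counts are given with the share of all tested genes called in the same fit. They were 8 by DESeq2 (9.63%), 1 without the 20 most abundant genes (1.35%) and 4 without a filter (2.59%). With a mean of at least 50 there was 1 (3.47%), and with only the groups compared 3 (2.87%). The Y-linked covariate gave 8 (6.51%), and leaving out a library gave 0 to 4 (0% to 2.43%). Between WT days 14 and 2 the counts were 11 by DESeq2 (8.68%) and 0 with only the groups compared (0.14%). Leaving out a library gave 1 to 10 (0.101% to 3.23%). Between WT days 14 and 7 they were 0 with only the groups compared (0.0202%), 0 with the replicate block (0.0234%) and 0 with the Y-linked covariate (0.0843%). Each fit without a library also gave 0 (0% to 0.046%). The causes of these changes were not tested, beyond fewer genes or samples entering the fit. The replicate block gave 0, 19 and 11 calls at days 2, 7 and 14 (0.0375%, 19.8% and 9.86% of all tested genes). At day 7 it added Cyp2c29 and lost Cyp27a1 (edgeR adjusted p = 0.0513). It gave 8 calls for the day 7 against day 2 difference (6.4%). The block by number across days gave 5 between WT days 14 and 2 (0.81%). With a library left out, 50 of the named members' fold changes lost their call and 7 gained one, whatever the size of the fold. Another 16 uncalled ones moved by more than their standard error, and the other 449 did neither. Many of the 449 were uncalled in the full fit, so they had no call to lose. Of the 19 calls at day 7, 11 held in every fit without a library, and of the 7 at day 14, 5 did. Under the other settings 13 lost their call, 10 gained one and 719 kept theirs or stayed uncalled. Depth limits the 46 members with too few counts for a test.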

Other observations

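Some further members, chosen after their values were seen, did not pass the test in the model of all libraries without a block but had fold changes of the size of called members. Cyp2d10 and Cyp2a12 passed the filter through KO libraries alone, so their values are a description. The KO libraries of Cyp2d10 lay above the WT libraries on both days, and it had log2 fold changes of 1.44 at day 7 (edgeR adjusted p = 0.0518) and 1.28 at day 14 (edgeR adjusted p = 0.172), and at day 7 it was called with median-of-ratios size factors and without KO day 7 replicate 3. Cyp2a12, whose libraries overlapped, had 2.38 at day 14 (edgeR adjusted p = 0.0999) and was called with the replicate block. Cyp3a59 had -1.15 at day 7 (edgeR adjusted p = 0.0631) and was called without WT day 7 replicate 3. Cyp4f39, which passed the filter through WT libraries alone, differed in sign between days, with 0.75 at day 7 (edgeR adjusted p = 0.219) and -1.12 at day 14 (edgeR adjusted p = 0.185).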
